A study of Homo sapiens with 2 samples.

Results

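Vitamin A reaches its active form, retinoic acid, through a short chain of proteins, and 7 genes of that chain were followed here in single human embryonic stem cells exposed to bone morphogenetic protein 4 (BMP4). They were CYP26A1, CRABP1, CRABP2, DHRS3, STRA6, ALDH1A2 and RARB. The genes were chosen by name, with earlier results of these data known. All 7 were found once each among the 33538 genes counted in both libraries.

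Retinol enters cells with the help of the membrane receptor STRA6, is oxidised to retinaldehyde, and is made into retinoic acid by retinaldehyde dehydrogenases such as ALDH1A2. DHRS3 is a reductase that turns retinaldehyde back into retinol and so limits synthesis, CRABP1 and CRABP2 bind retinoic acid in the cytoplasm, and CYP26A1 is a cytochrome P450 that breaks it down. RARB is a nuclear receptor for retinoic acid. In vertebrate embryos CYP26A1 is known for its early expression around gastrulation and ALDH1A2 as the main source of retinoic acid in mesoderm. CYP26A1, DHRS3, STRA6 and RARB are also known as genes that retinoic acid itself can induce.

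Both libraries were from H1, an established human embryonic stem cell line, kept on Matrigel in mTeSR1 medium with 50 ng/ml BMP4 for 48 h. The library labelled WT was from H1 cells, and the library labelled GATA3 KO was from KO-GATA3-06, which is 1 clone in which the transcription factor gene GATA3 had been targeted in an H1 line carrying a doxycycline-inducible Cas9 cassette. Genotype, clone and cassette therefore cannot be told apart. The treatment text of the library labelled WT names 1 h of BMP4, but its title and recorded duration give 48 h. Each group is 1 library without replicates, so no test was made between them, and every interval given is a 95% interval that covers counting error only.

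The libraries held 3802 and 6221 cell barcodes, of which 2519 and 4450 were kept at no more than 7500 detected genes and 25% mitochondrial counts. Those cells had 99587274 and 175285931 unique molecular identifiers (UMIs), with medians of 44415 and 43132 per cell. A level is given as UMIs of a gene per 1000000 UMIs (CPM). Detection is the share of cells with at least 1 UMI when 10000 UMIs are drawn at random from each cell, for which 2173 and 4038 cells were deep enough. The libraries shared 8 barcodes. The GATA3 transcript was at 12.7 CPM in the library labelled WT and 10.9 CPM in the library labelled GATA3 KO, and since 3′ counts do not show whether a coding sequence is intact, this gene does not check the labels. POU5F1, a pluripotency factor, was at 918 and 1480 CPM, COL1A1, a fibroblast collagen, was at 15.2 and 29.4 CPM, and 7 further markers of fibroblasts, endothelium and blood (COL3A1, DCN, LUM, PECAM1, CDH5, PTPRC and HBZ) did not exceed 0.0856 CPM in either library.

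In GRCh38 with the GENCODE annotation, CYP26A1 (ENSG00000095596) lies on the plus strand of chromosome 10 from 93073475 to 93077885, and RARB (ENSG00000077092) on the plus strand of chromosome 3 from 24687887 to 25597932. Both CRABP2 (ENSG00000143320, 156699606 to 156705816) and DHRS3 (ENSG00000162496, 12567910 to 12618210) are on the minus strand of chromosome 1. Chromosome 15 holds the remaining members, with CRABP1 (ENSG00000166426, 78340353 to 78348225) on the plus strand and STRA6 (ENSG00000137868, 74179466 to 74212267) and ALDH1A2 (ENSG00000128918, 57953424 to 58497866) on the minus strand. All are protein-coding. ALDH1A2 overlaps LIPC-AS1 on its own strand, so its reads could be shared with that gene. On the other strand ALDH1A2 overlaps AQP9, LIPC and ALDH1A2-AS1, and STRA6 overlaps CCDC33. Whether the overlaps on the other strand matter for the counts was not tested.

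Retinoic acid receptors are known to bind direct repeats of a 6-base motif spaced by 5 bases (DR5). The RefSeq promoter windows of the members (GRCh38.p14, 250 bases before to 50 after each of 18 start sites) were therefore searched on both strands for such repeats. Each motif could be the consensus AGGTCA or a common variant of it. The variants allowed were AGTTCA, which is frequent in known elements, as well as GGGTCA, and beside these the sequence GGTTCA. A DR5 was present for 2 of the 7 members, CYP26A1 and RARB, and both matches are shown. The RARB match uses GGTTCA and the CYP26A1 match uses AGTTCA, so the count of members depends on which sequences were allowed. Among the 27305 genes with a promoter window, 0.106% had a DR5 in one. That share is given for scale and is not a test of the members. With a spacing of 2 bases no member had a match. The matched motifs are in capitals, and each sequence is read 5′ to 3′ along the strand of its gene.
CYP26A1, chr10:93073797-93073825, element on the opposite strand: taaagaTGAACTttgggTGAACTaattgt
RARB, chr3:25428204-25428232, element on the strand of the gene: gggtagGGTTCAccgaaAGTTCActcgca
The CYP26A1 element lies 73 bases before the start site at 93073893 and inside an annotated untranslated exon of another transcript of the gene. The RARB element lies 36 bases before the start site at 25428263, also inside untranslated exons of other transcripts. A match of letters does not show binding in these cells.

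The levels of the 7 genes ran from 0.103 to 224 CPM. The cytoplasmic binding proteins were the most abundant, with CRABP1 at 111 CPM in the library labelled WT and 224 CPM in the library labelled GATA3 KO, and CRABP2 at 34.7 and 48.97 CPM. CYP26A1 was at 14.1 and 5.23 CPM, and DHRS3 at 5.07 and 16.8 CPM. The order of this pair of enzymes was thus opposite in the libraries. STRA6 was at 1.41 and 2.11 CPM, ALDH1A2 at 0.271 and 0.314 CPM, and RARB at 0.161 and 0.103 CPM. Neighbours in this order had intervals that did not overlap, except for ALDH1A2 and RARB in the library labelled WT (0.179 to 0.394 and 0.0918 to 0.261 CPM). The counts come from 3′ ends with 1 UMI per captured molecule, so they do not grow with transcript length, but capture can differ between genes.

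CYP26A1 was 2.69-fold lower in GATA3 KO cells than in WT cells, with 1402 UMIs in WT cells and 917 UMIs in GATA3 KO cells. On the log2 scale of CPM plus a pseudocount of 1 its ratio was -1.27 (-1.38 to -1.17). DHRS3 was 3.32-fold higher (log2 ratio 1.55, 1.44 to 1.67), from 505 and 2948 UMIs. Over all deposited cells the log2 ratios were -1.03 for CYP26A1 and 1.24 for DHRS3. Both lay outside these intervals, so their size depends on the filter on cells. CRABP1 was 2.03-fold higher (log2 ratio 1.01, 0.98 to 1.04), an interval that reached below a 2-fold difference. CRABP2 was 1.41-fold higher (log2 ratio 0.49, 0.43 to 0.54) and STRA6 1.502-fold higher (log2 ratio 0.37, 0.19 to 0.54). With the mean of per-cell CPM the log2 ratio of STRA6 was -0.07. For ALDH1A2, with 27 and 55 UMIs, and RARB, with 16 and 18 UMIs, the intervals of the ratio held 0, and a difference was not detectable at this depth.

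Counted at a threshold of 2-fold, 1 of the 7 members was lower in the library labelled GATA3 KO and 2 were higher. Of all 13149 genes with a mean of at least 1 CPM, 2.17% were at least 2-fold lower and 2.11% at least 2-fold higher. Only 5 of the members reached that mean level, ALDH1A2 and RARB being the exceptions. The median log2 ratio over the 7 members was 0.37, against 0.07 over all those genes. Under TMM and under median-of-ratios scaling the ratio of CRABP1 lay just under 2-fold, which left 1 member higher. The members were chosen with earlier results known, so the shares of all genes are for scale and not a test.

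Detection at equal depth gave the same directions for the 4 most abundant members. CYP26A1 had a UMI in 8.01% (6.90 to 9.23) of WT cells and 4.38% (3.77 to 5.06) of GATA3 KO cells. DHRS3 was detected in 5.43% (4.52 to 6.47) and 15.1% (14.0 to 16.3) of cells, CRABP1 in 60.2% (58.1 to 62.3) and 81.8% (80.6 to 83.0), and CRABP2 in 28.1% (26.2 to 30.1) and 36.4% (34.9 to 37.9). STRA6 was detected in 1.20% and 2.13% of cells, and ALDH1A2 and RARB in no more than 0.322% in either library. These intervals are exact Clopper-Pearson intervals, and none of the 4 pairs of intervals for the abundant members overlapped.

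**Figure D1:**
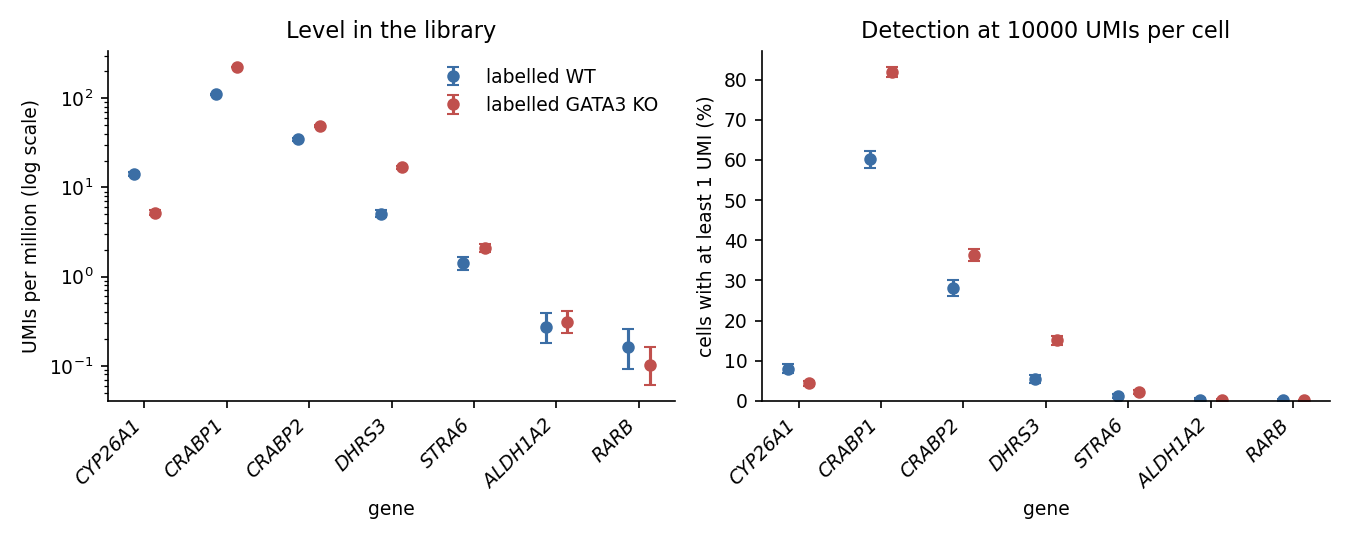
Level of each gene in UMIs per 1000000 (left, log axis) and share of cells with at least 1 UMI at 10000 UMIs per cell (right, percent) in the libraries labelled WT (blue) and GATA3 KO (red), 1 library each. Points are the library values and bars the 95% counting intervals. CYP26A1 is the abundant member that is lower in the library labelled GATA3 KO, at 5.23 against 14.1 UMIs per 1000000.

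Of the 4 most abundant members, CYP26A1 had the UMIs most concentrated in few cells. At equal depth, the 22 WT cells with the most CYP26A1 held 39.6% of its UMIs, and the 41 such cells labelled GATA3 KO held 40.4%, each being 1% of the cells. The same share of cells held 22.6% and 12.7% of the UMIs of DHRS3, 8.24% and 8.16% of those of CRABP2, and 5.05% and 3.79% of those of CRABP1. Single cells reached 55 UMIs of CYP26A1 among WT cells and 30 among GATA3 KO cells before thinning.

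Cell states were read from a UMI of SOX2, a pluripotency and neural factor, of MIXL1, a primitive streak factor, or of TFAP2A, a factor of surface ectoderm, amnion and trophectoderm, in the thinned counts. In the library labelled WT, 54.9% of cells were SOX2-positive, 31.7% MIXL1-positive and 11.9% TFAP2A-positive. In the library labelled GATA3 KO the shares were 86.8%, 2.08% and 18.0%. The MIXL1-positive cells thus numbered 689 in the former and 84 in the latter. Median depth before thinning was between 44718 and 49016 UMIs in every positive and negative group, so the groups compared below had similar depth.

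Among WT cells, CYP26A1 was concentrated in MIXL1-positive cells. It was at 34.3 CPM (32.4 to 36.4) in MIXL1-positive cells and 4.12 CPM (3.64 to 4.64) in MIXL1-negative cells, a log2 ratio of 2.79 (2.63 to 2.95). Of the WT cells with a UMI of CYP26A1, 66.1% also had one of MIXL1, against 28.7% of the other cells. The level was higher the more MIXL1 a cell held. It was 4.12 CPM in the 1484 cells with no MIXL1 UMI, 8.56 CPM in the 210 cells with 1, 18.1 CPM in the 193 cells with 2 to 3, 25.6 CPM in the 178 cells with 4 to 7, and 126 CPM (116 to 137) in the 95 cells with 8 to 15. The 13 cells with 16 or more were at 134 CPM (106 to 168), and the intervals of these last 2 groups overlapped.

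Within the MIXL1-positive cells of this library the level followed CER1, a secreted antagonist made by anterior streak and endoderm cells. This split was chosen after the values had been seen. CYP26A1 was at 83.4 CPM (77.7 to 89.4) in the 203 cells with both genes and at 13.9 CPM (12.4 to 15.5) in the 486 MIXL1-positive cells without CER1. In the 40 cells with CER1 but no MIXL1 it was at 9.16 CPM, and in the 1444 cells with neither at 3.98 CPM. Without any CER1-positive cell the log2 ratio between MIXL1-positive and MIXL1-negative cells was 1.58. Of 7 other genes of streak, endoderm and early mesoderm, 5 marked high levels as well, with 87.9 CPM in MESP1-positive cells, 72.7 CPM in GSC-positive cells, 55.8 CPM in SOX17-positive cells, 38.5 CPM in TBXT-positive cells and 33.8 CPM in EOMES-positive cells, against 4.96 to 12.4 CPM in the cells negative for each. For TBX6, a factor of paraxial mesoderm, and FOXA2, a factor of endoderm, this was less clear. The 22 TBX6-positive cells were at 26.9 CPM against 14.0 CPM in TBX6-negative cells (log2 ratio 0.89, 0.31 to 1.42). A CYP26A1 UMI was in 22.7% of the former and 7.86% of the latter. Without the top cell of each group, TBX6-positive cells were at 10.3 CPM and SOX17-positive cells at 42.4 CPM. The 5 FOXA2-positive cells, with 4 UMIs, were at 14.8 CPM against 14.1 CPM. Across the 2173 thinned WT cells, the genes whose log counts were most correlated with CYP26A1 among 4976 genes of at least 20 CPM were CER1 (Pearson r = 0.424), MIXL1 (0.351), EOMES (0.310), CDA (0.2501) and SERPINE2 (0.198). These correlations are over cells of 1 library and are descriptive.

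Among GATA3 KO cells, of which few were MIXL1-positive, the MIXL1 contrast did not show that pattern. CYP26A1 was at 3.35 CPM (1.79 to 5.73) in the 84 MIXL1-positive cells and at 5.29 CPM (4.95 to 5.65) in MIXL1-negative cells, and the interval of the log2 ratio, -0.53 (-1.18 to 0.10), held 0. The 10 cells with both MIXL1 and CER1 had 4 UMIs of CYP26A1, or 8.17 CPM (2.23 to 20.9). The upper end of that interval lay below the 83.4 CPM of WT cells with both genes. The 74 GATA3 KO cells with MIXL1 but no CER1 were at 2.66 CPM (1.215 to 5.04), an overlapping interval. Between GATA3 KO cells with MIXL1 as their only marker and those with no marker, the levels were 3.70 CPM (0.764 to 10.8) and 1.92 CPM (1.07 to 3.16). That log2 ratio was 0.69. These last contrasts had the direction of WT cells, but such small counts do not show whether a weaker pattern was present.

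CYP26A1 in the library labelled GATA3 KO was instead found with SOX2. It was at 5.88 CPM (5.50 to 6.28) in SOX2-positive cells and 1.19 CPM (0.791 to 1.72) in SOX2-negative cells, a log2 ratio of 1.65 (1.33 to 1.95), and 94.9% of the cells with a CYP26A1 UMI were SOX2-positive, against 86.4% of the others. The level was 3.62 CPM at 1 SOX2 UMI, 6.24 CPM at 5 to 7, 8.99 CPM at 8 to 11 and 11.4 CPM (7.71 to 16.1) in the 65 cells with 12 or more. In the library labelled WT the contrast had the opposite sign, with 7.67 CPM in SOX2-positive and 21.9 CPM in SOX2-negative cells and a log2 ratio of -1.40 (-1.56 to -1.25). That WT contrast held MIXL1-positive cells on its SOX2-negative side, and between cells with SOX2 as their only marker and cells with none of the 3 markers (4.93 and 2.93 CPM) the WT log2 ratio was 0.60.

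Within the library labelled GATA3 KO, CYP26A1 was high in cells with 2 of the 4 genes of neural ectoderm examined, SOX21 and FEZF1. It was at 31.4 CPM in the 74 cells positive for SOX21, a neural SOX factor, against 4.80 CPM in the others, and without the cell with the most CYP26A1 it was still at 24.6 CPM. In the 131 cells positive for FEZF1, a forebrain factor, it was at 19.2 CPM against 4.79 CPM. The difference was smaller for IRX2, a neural homeobox factor, with 7.38 CPM in 1865 positive cells and 3.42 CPM in the others, and the 6 UMIs of the 7 PAX6-positive cells were all in 1 cell. WT cells positive for SOX21, of which there were 21, had 4.30 CPM. The 5 genes most correlated with CYP26A1 in the library labelled GATA3 KO were ZIC2 (r = 0.102), OTX2 (0.088), FZD7 (0.087), TTYH1 (0.085) and FEZ1 (0.082), all of them weak. PRDM1-positive cells also had 31.4 CPM, but 30 of their 31 UMIs were from 1 cell. Among marker states of at least 20 cells, the lowest share of cells with a CYP26A1 UMI was 0.932%, in the GATA3 KO cells that had TFAP2A as their only marker.

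**Figure D2:**
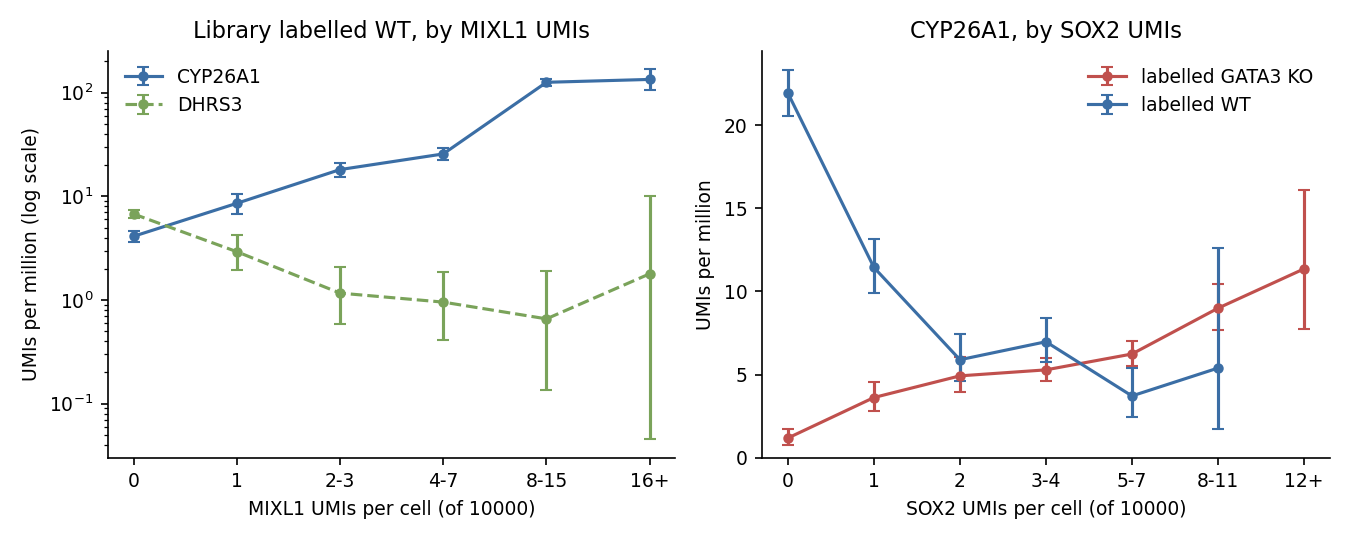
Left, CYP26A1 (blue, solid) and DHRS3 (green, dashed) in UMIs per 1000000 (log axis) in WT cells by the number of MIXL1 UMIs per cell of 10000. Right, CYP26A1 in UMIs per 1000000 by SOX2 UMIs per cell in the libraries labelled WT (blue) and GATA3 KO (red), bins of at least 5 cells. Bars are 95% Poisson intervals. CYP26A1 goes from 4.12 to 134 UMIs per 1000000 over the MIXL1 bins, and over SOX2 bins it is highest at 0 in WT cells (21.9) and at 12 or more in GATA3 KO cells (11.4).

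To set the libraries side by side within a state, cells were divided into the 8 combinations of the 3 markers, of which 5 held at least 20 cells in both libraries. Among these, CYP26A1 was lower in GATA3 KO cells with an interval below 0 in 1 state, the cells with SOX2 and MIXL1. There it was at 23.9 CPM in 172 WT cells and 3.598 CPM in 52 GATA3 KO cells, a log2 ratio of -2.44 (-3.31 to -1.59). In cells with MIXL1 alone it was at 39.6 CPM in 433 WT cells, and the 16 such GATA3 KO cells had 3 UMIs, or 3.70 CPM (0.764 to 10.8). MIXL1-positive cells did not hold the same amount of MIXL1 in the libraries, since 61 of the 84 GATA3 KO cells had 1 MIXL1 UMI, against 210 of the 689 WT cells. At 1 MIXL1 UMI CYP26A1 was at 8.56 CPM (6.81 to 10.6) in WT and 2.90 CPM (1.25 to 5.71) in GATA3 KO cells, a smaller gap than over all MIXL1-positive cells. At 2 to 3 UMIs the values were 18.1 CPM and 1.46 CPM (0.0371 to 8.15), the latter from 14 cells, and at 4 to 7 they were 25.6 CPM (22.3 to 29.3) and 5.10 CPM (0.618 to 18.4), the latter from 8 cells. A single GATA3 KO cell had 8 to 15 MIXL1 UMIs. Its 2 CYP26A1 UMIs gave 51.5 CPM (6.24 to 186), an interval that held the 126 CPM of WT cells in that bin. In cells with SOX2 alone, the largest state of both libraries, CYP26A1 was at 4.93 and 5.96 CPM, a log2 ratio of 0.23 (0.04 to 0.42). In the cells with TFAP2A alone, in those with SOX2 and TFAP2A and in those with no marker, the intervals of the log2 ratio held 0.

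When each library's level in the 8 states was weighted by the shares of the states in the library labelled WT, the log2 ratio of CYP26A1 was -1.53, against -1.28 as observed in the same cells. The value of -1.53 gives large weights to MIXL1-positive states, in which the 84 GATA3 KO cells held 13 CYP26A1 UMIs. No interval was formed for it, and the states do not match the amount of MIXL1. With the shares of the library labelled GATA3 KO, in which MIXL1-positive states are rare, the log2 ratio of CYP26A1 was 0.10. For DHRS3 the corresponding values were 1.27 and 1.20 against 1.56 observed, for CRABP1 0.87 and 0.94 against 1.00, and for CRABP2 0.42 and 0.46 against 0.49. The ratio of CYP26A1 thus depended on which library's shares were used, and those of the other three did so by no more than 0.07.

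**Figure D3:**
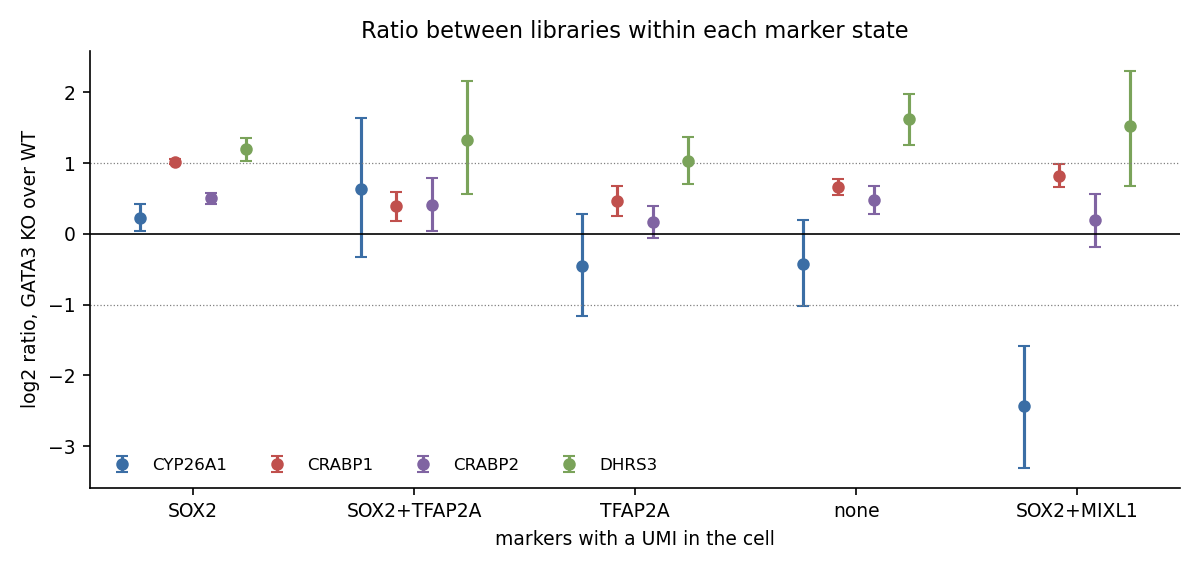
Log2 ratio of CPM plus 1, GATA3 KO over WT, for CYP26A1 (blue), CRABP1 (red), CRABP2 (purple) and DHRS3 (green) within the 5 marker states that hold at least 20 cells in both libraries. Bars are 95% counting intervals and dotted lines mark 2-fold. DHRS3 is at least 2-fold higher in all 5 states, and CYP26A1 is at least 2-fold lower in the cells with SOX2 and MIXL1, at -2.44.

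DHRS3, the retinaldehyde reductase, was at least 2-fold higher in the library labelled GATA3 KO in each of those 5 states, with log2 ratios from 1.03 to 1.62 and intervals above 0 in all 5. In cells with SOX2 alone it was at 6.22 and 15.5 CPM, in cells with TFAP2A alone at 14.4 and 30.4 CPM, and in cells with no marker at 5.45 and 18.8 CPM. Its directions over MIXL1 and TFAP2A were shared by the libraries, and that over SOX2 was not. It was lower in MIXL1-positive cells, at 1.57 against 6.75 CPM in WT cells (log2 ratio -1.59, -1.86 to -1.31) and 6.71 against 17.1 CPM in GATA3 KO cells (-1.23, -1.75 to -0.73). In WT cells with 4 to 7 MIXL1 UMIs it was at 0.954 CPM, where CYP26A1 was at 25.6 CPM.

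DHRS3 was higher in TFAP2A-positive than in TFAP2A-negative cells of both libraries, but among cells with SOX2 the levels were close. WT cells with SOX2 and TFAP2A were at 6.04 CPM (3.02 to 10.8), against 6.22 CPM with SOX2 alone. Such cells labelled GATA3 KO were at 16.7 CPM (14.8 to 18.7) against 15.5 CPM (14.9 to 16.2), and were 389 of the 727 TFAP2A-positive cells. Among all cells of a library the levels went up with the number of TFAP2A UMIs. In WT cells it was at 4.50 CPM with no TFAP2A UMI, 7.43 CPM with 1, 12.0 CPM with 2 to 3, and 20.7 CPM (6.74 to 48.4) in the 7 cells with 4 or more. In GATA3 KO cells the levels at the same steps were 15.5, 18.8, 24.3 and 32.6 CPM (27.5 to 38.4), the last in 101 cells. Cells positive for HAND1, a factor of amnion, trophoblast and lateral mesoderm, had 15.3 CPM against 4.58 CPM in the library labelled WT and 34.8 against 15.9 CPM among GATA3 KO cells. Higher DHRS3 was not particular to TFAP2A-positive or HAND1-positive cells. In WT cells it was also higher with the neural genes IRX2 (log2 ratio 0.92, 0.69 to 1.15) and SOX21 (1.22, 0.36 to 1.99). For FEZF1, with 19 positive WT cells, the interval included no difference (0.99, -0.08 to 1.91). In GATA3 KO cells DHRS3 was higher with IRX2 (0.40, 0.30 to 0.50) and FEZF1 (0.57, 0.32 to 0.80). It was not clearly so with SOX21 (0.02, -0.38 to 0.40). The values of DHRS3 over SOX2 had another form in each library. In WT cells it was at 4.38 CPM without SOX2 and 8.10 CPM at 5 to 7 UMIs, and in GATA3 KO cells at 25.2 CPM without SOX2, 12.8 CPM at 2 UMIs and 27.1 CPM at 12 or more. The SOX2 contrast of DHRS3 had a log2 ratio of 0.29 (0.07 to 0.51) in WT cells and -0.67 (-0.79 to -0.54) in GATA3 KO cells. Over all deposited cells the WT value was -0.12, so the opposite directions depend on the filter on cells. The SOX2-negative sides were also unlike mixes of states. TFAP2A was the only marker in 322 of the 534 GATA3 KO cells and 130 of the 981 WT cells. MIXL1 was the only marker in 16 of the former and 433 of the latter. The part of this mix in the opposite directions was not tested. The genes most correlated with DHRS3 were C1orf21, PODXL, SFRP1, CD24 and IRX2 in WT cells (r from 0.115 to 0.137) and FAM20A, RHOBTB3, WLS, POSTN and CLDN10 in GATA3 KO cells (0.097 to 0.108), and no gene was on both lists.

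CRABP1, a binding protein of retinoic acid, followed SOX2 and went against TFAP2A in both libraries. In SOX2-positive cells it was at 125 CPM against 95.01 CPM in WT cells (log2 ratio 0.39, 0.34 to 0.45) and at 245 against 95.7 CPM in GATA3 KO cells (1.34, 1.28 to 1.41). The close levels in SOX2-negative cells of the libraries were over unlike mixes of states, with 322 of the 534 GATA3 KO cells having TFAP2A alone, against 130 of the 981 WT cells. State by state CRABP1 was higher in GATA3 KO cells, at 156.8 against 98.6 CPM with no marker. In TFAP2A-positive cells it was at 71.5 against 117 CPM in WT cells and 109.8 against 250.2 CPM in GATA3 KO cells, with log2 ratios of -0.70 (-0.80 to -0.60) and -1.18 (-1.23 to -1.13). Over 0, 1, 2 to 3 and 4 or more TFAP2A UMIs the GATA3 KO cells had 250.2, 144, 80.4 and 58.8 CPM. The WT cells had 117, 82.5, 47.5 and 66.4 CPM, the last value in 7 cells with an interval of 37.9 to 108 CPM. MIXL1 made little difference to CRABP1 in WT cells, at 109.9 CPM in MIXL1-positive and 112 CPM in MIXL1-negative cells. In GATA3 KO cells CRABP1 was at 196 CPM with MIXL1 and 225 CPM without (log2 ratio -0.20, -0.30 to -0.09).

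Within states CRABP1 was higher in the library labelled GATA3 KO in all 5 states, with log2 ratios from 0.39 to 1.02, but past 2-fold in 1 of them, the cells with SOX2 alone (126 and 257 CPM, 1.02, 0.98 to 1.06). Cells with TFAP2A alone had 41.2 and 57.0 CPM. In GATA3 KO cells, the genes most correlated with CRABP1 were TERF1 (r = 0.383), SFRP1 (0.345), SOX2 (0.311), TDGF1 (0.309) and CD24 (0.304), and the most negative correlations were with HPGD (-0.393), CLDN10 (-0.390), NTS (-0.388), FN1 (-0.378) and BMP4 (-0.375). WT cells gave HSP90AB1, SET, NCL, TERF1 and PEBP1, at 0.164 to 0.195. HPGD was the lowest in WT cells as well, at -0.276.

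**Figure D4:**
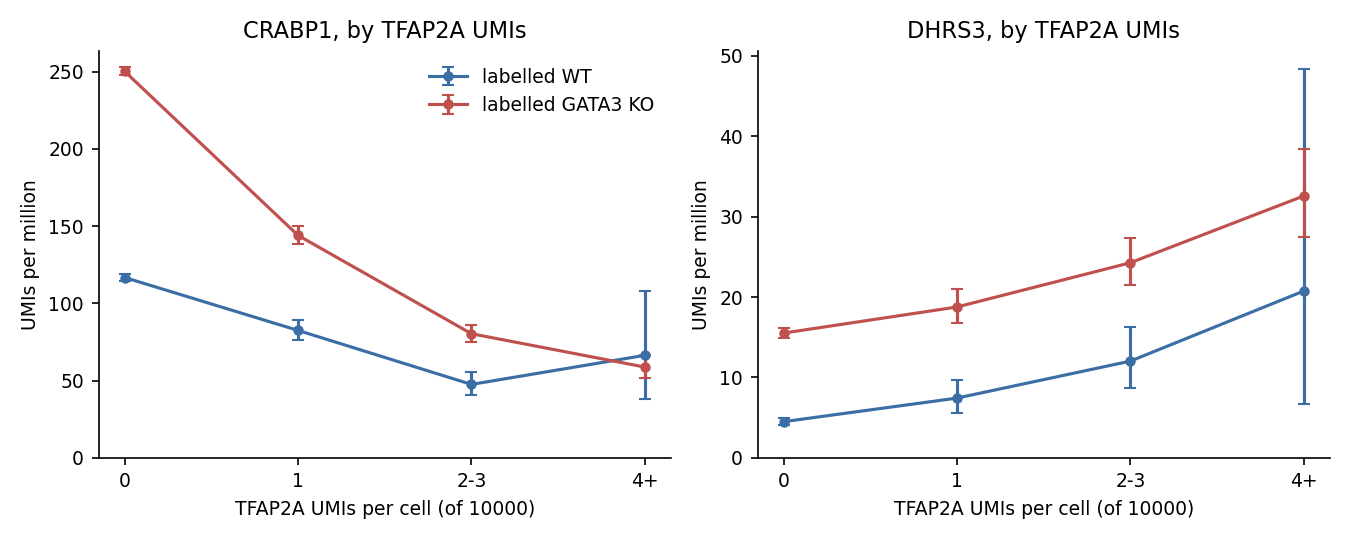
CRABP1 (left) and DHRS3 (right) in UMIs per 1000000 by the number of TFAP2A UMIs per cell of 10000 in the libraries labelled WT (blue) and GATA3 KO (red). Bars are 95% Poisson intervals. In GATA3 KO cells CRABP1 goes from 250.2 to 58.8 UMIs per 1000000 and DHRS3 from 15.5 to 32.6, and the last WT bin has 7 cells.

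CRABP2, the other binding protein, which carries retinoic acid to nuclear receptors, was the most even of the abundant members. None of the 3 marker contrasts reached 2-fold in either library. In WT cells it was at 34.0 CPM with MIXL1 and 34.7 CPM without, at 34.8 CPM with SOX2 and 34.1 CPM without, and at 37.3 CPM with TFAP2A and 34.1 CPM without, and the intervals of all 3 ratios held 0. In GATA3 KO cells none of the 3 intervals held 0, with log2 ratios of 0.22 (0.13 to 0.32) for SOX2, -0.45 (-0.69 to -0.21) for MIXL1 and -0.22 (-0.30 to -0.14) for TFAP2A. By SOX2 UMIs it was at 42.6 CPM at 0, 37.1 CPM at 1, 53.6 CPM at 5 to 7 and 74.0 CPM (64.1 to 84.9) at 12 or more. Its log2 ratios between the libraries within the 5 states were between 0.17 and 0.50, with intervals above 0 in 3 of them. The genes most correlated with it were VIM, USP9X, SFRP1, APELA and RBX1 in WT cells (r from 0.096 to 0.127) and SFRP1, CLU, IRX2, UGP2 and OTX2 in GATA3 KO cells (0.119 to 0.184).

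ALDH1A2, the enzyme that makes retinoic acid, was rare. Among the amnion and trophectoderm factors examined, it was highest in cells with HAND1 or ISL1. Among WT cells, 20 of its UMIs were in the 102 cells positive for HAND1, which gave 4.86 CPM against 0.0532 CPM in the other cells. In the library labelled GATA3 KO, 35 UMIs in the 190 HAND1-positive cells gave 4.10 CPM against 0.0968 CPM. No single cell had more than 4 of these UMIs, and they came from 13 and 26 cells. Cells positive for ISL1, a further factor of amnion and mesoderm, had 5.44 and 4.91 CPM against 0.0946 and 0.205 CPM. GATA3-positive cells had 1.63 and 2.71 CPM against 0.123 and 0.0934 CPM. Among WT cells, the 36 GATA2-positive cells held 1 UMI and the 34 CDX2-positive cells 1 UMI, and both intervals of the ratio held 0. In the library labelled GATA3 KO, cells with GATA2 had 1.25 against 0.232 CPM, and cells with CDX2 1.06 against 0.276 CPM. TFAP2A-positive cells had 1.23 CPM against 0.127 CPM in the library labelled WT (log2 ratio 0.98, 0.57 to 1.31) and 1.40 against 0.0423 CPM in the library labelled GATA3 KO (1.21, 1.03 to 1.31). Within the 5 states the intervals of its log2 ratio between the libraries held 0, except in cells with SOX2 and TFAP2A, where 4 and 6 UMIs gave 2.20 and 0.360 CPM (log2 ratio -1.23, -2.13 to -0.13). At equal depth 2.27% of the 44 WT cells of that state had a UMI. The 4 UMIs may thus be from few cells, which the interval does not cover. In WT cells with MIXL1 alone no UMI was counted, which allows up to 0.145 CPM. The 7 WT cells with a UMI after thinning had a median of 11310 UMIs before it, well below the 47162 of the other cells, and the part of depth in this was not tested.

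STRA6, the retinol receptor, was at 1.20 CPM in MIXL1-positive and 1.48 CPM in MIXL1-negative WT cells, and in WT cells the intervals of all 3 marker ratios held 0. Over the marker genes with at least 20 positive cells, its highest value was in the 74 GATA3 KO cells positive for SOX21, with 21 UMIs in 18 cells, or 7.17 CPM against 2.02 CPM in the others. These are also cells in which CYP26A1 was high. RARB, the receptor, had too few UMIs for a pattern within most states. In TFAP2A-positive cells 8 UMIs gave 0.701 CPM in the library labelled WT, and 10 UMIs gave 0.312 CPM in the library labelled GATA3 KO, against 0.0923 and 0.0494 CPM in TFAP2A-negative cells. No RARB UMI was counted in the 84 MIXL1-positive GATA3 KO cells, which allows up to 0.774 CPM. The 689 MIXL1-positive WT cells, in which CYP26A1 was at 34.3 CPM, held 2 RARB UMIs, or 0.0615 CPM.

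**Figure D5:**
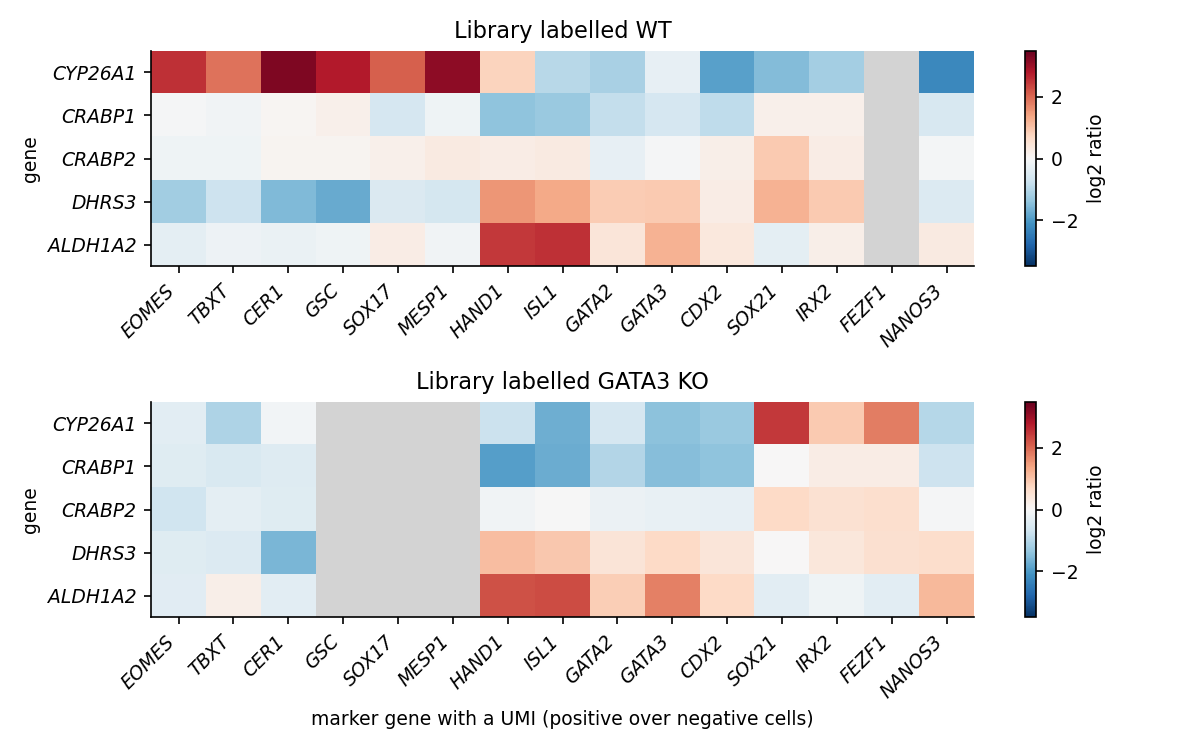
Log2 ratio of CPM plus 1 between cells positive and negative for each marker gene (columns) for 5 of the genes (rows), in the library labelled WT (top) and the library labelled GATA3 KO (bottom). Red is higher and blue lower in positive cells, and grey marks fewer than 20 positive cells. CYP26A1 is high with EOMES to MESP1 in WT cells (33.8 to 87.9 CPM) and with SOX21 and FEZF1 in GATA3 KO cells (31.4 and 19.2 CPM), while ALDH1A2 is high with HAND1 and ISL1 in both.

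Counted over all 7 members, few passed 2-fold in a marker contrast, and the counts are given beside the share of all genes of at least 1 CPM that did so. Those shares are for scale and not a test, since the members were chosen with earlier results known. With SOX2, 0 members were higher and 1 (CYP26A1) lower in WT cells, where 1.09% of genes were higher and 1.77% lower. In GATA3 KO cells 2 were higher (CYP26A1 and CRABP1) and 1 lower (ALDH1A2), against 3.03% and 3.19% of genes. With MIXL1, 1 was higher (CYP26A1) and 1 lower (DHRS3) in WT cells, against 1.34% and 1.1%, and in GATA3 KO cells 0 were higher and 1 (DHRS3) lower, against 0.789% and 0.896%. With TFAP2A, 0 passed in either direction in WT cells, where 1.47% of genes were higher and 0.771% lower, and in GATA3 KO cells 1 was higher (ALDH1A2) and 1 lower (CRABP1), against 2.77% and 1.39%. ALDH1A2 was itself under 1 CPM and so not among the genes of these shares, and without it 0 members were lower with SOX2 and 0 higher with TFAP2A in GATA3 KO cells.

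Between pairs of members there was hardly any correlation over cells. CRABP1 and CRABP2 had the highest value, with a Pearson r of 0.0625 over the 4038 GATA3 KO cells, in which 1241 cells held both.

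Of 44 further genes of retinoic acid synthesis, breakdown, reception and response, also chosen with earlier results known, 25 reached a mean of 1 CPM. Between the libraries 2 of them were at least 2-fold lower in the library labelled GATA3 KO and 0 higher, against 2.17% and 2.11% of all genes, and their median log2 ratio was 0.05, against 0.07 over all genes. The 2 were FABP5, a fatty acid binding protein that can also carry retinoic acid, at 1825 and 911 CPM (log2 ratio -1.002, -1.012 to -0.992), and CDX1, a caudal homeobox factor and target of retinoic acid, at 1.998 and 0.331 CPM (-1.17, -1.31 to -1.01). Among the genes of synthesis and transport, RDH14, a retinol dehydrogenase, was at 51.7 and 29.9 CPM, RDH11, a further retinol dehydrogenase, at 97.9 and 112 CPM, and the alcohol dehydrogenase ADH5 at 383 and 300.2 CPM. RDH10, the main dehydrogenase of embryonic retinol, was at 7.30 and 3.86 CPM. The other CYP26 enzymes were near the floor, with CYP26B1 at 11 and 6 UMIs and CYP26C1 at 0 and 6 UMIs.

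All 10 receptors and cofactors of at least 1 CPM were within 2-fold. RARG, the most abundant retinoic acid receptor gene here, was at 8.25 and 14.8 CPM, RARA at 5.19 and 5.07 CPM, and RXRA, the partner receptor, at 13.2 and 16.6 CPM. The corepressor gene NCOR1 was at 80.2 and 84.2 CPM. Of 14 target genes only 4 reached 1 CPM. Besides CDX1 these included RARRES2, at 214 and 321 CPM.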

How the data were processed

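Single-cell RNA was measured in 2 libraries, 1 labelled WT and 1 labelled GATA3 KO. The authors made 10x Genomics 3′ v3 libraries, processed the reads with Cell Ranger (3.0.2 per the file headers) against GRCh38, and deposited raw UMI counts per gene and called cell, not normalised. The genes were matched by symbol. The members, gene lists and marker genes were chosen with earlier results of these data known.

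Cells over 7500 detected genes or 25% mitochondrial counts were removed, after the methods of the study, with no lower limit on genes. Counts of the kept cells were summed and divided by their total (CPM, per 1000000 UMIs). For detection and states, cells were thinned to 10000 UMIs (seed 42), which left out 346 and 412 shallower cells. Levels within states used all UMIs of those cells. Ratios were formed on a log2 scale after 1 CPM was added to both sides, which understates differences of low genes. CPM has exact Poisson intervals, shares Clopper-Pearson intervals, and ratios the exact binomial interval of both counts, at 95%. A count of 0 was taken to allow 3 counts. PCR copies are removed by the UMIs, but cells of 1 library are not replicates, and with 1 library per group no test was made.

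Genes named were the 7 members, the 3 markers, listed retinoic acid genes of at least 20 CPM in a library or 2-fold apart at a mean of 1 CPM, and for each member of at least 5 CPM in a library the 5 genes of highest Pearson r over thinned cells, among genes of at least 20 CPM. Some genes that this rule names are not reported here. Other listed or panel genes that are named, and the genes of lowest r, were chosen after their values were seen. Scrublet (scanpy 1.11.5) called 1 and 2 cells as doublets, too few for a caller that works, so none were removed, and removing the 57 and 171 kept cells of highest score was an alternative. TMM (edgeR 4.0.16) and median-of-ratios (DESeq2 1.42.0) scaling were alternatives. Empty droplets were not analysed here, so the share of UMIs from free RNA is not known. Positions are from GENCODE and promoter windows from RefSeq (GRCh38.p14), which had entries for all 7 members. Functions were tested on simulated data.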

Additional observations from a re-analysis of the deposited data

Results flagged for a closer look

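CYP26A1 had opposite directions over SOX2 in the libraries, with a log2 ratio of SOX2-positive over SOX2-negative cells of -1.40 in the library labelled WT and 1.65 in the library labelled GATA3 KO. DHRS3 did so as well, at 0.29 in the library labelled WT and -0.67 in the library labelled GATA3 KO. Its WT value turned to -0.12 without the limits on genes and mitochondrial counts, which is the sign of the GATA3 KO value. The SOX2-negative cells of the libraries also differed in their mix of marker states. Over the kept cells each of these intervals lay on its own side of 0, but with 1 library per group the difference between the libraries was not tested.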

How the results depend on the processing

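No paired analysis was possible because each group had 1 library. Of the 595 values recomputed under an alternative, 33 changed sign. Of these, 2 had been past 2-fold, both of CYP26A1, and 21 had an interval that held 0. The WT log2 ratio of CYP26A1 between SOX2-positive and SOX2-negative cells was 0.60 with SOX2 as the only marker against none of the 3, a comparison that by its construction leaves MIXL1-positive cells out of both sides, and the ratio between libraries at equal shares of marker states was 0.10 with the shares of the library labelled GATA3 KO. DHRS3 over SOX2 in WT cells was -0.12 over all deposited cells, and STRA6 between the libraries -0.07 with the mean of per-cell CPM. With exclusive states, RARB over SOX2 was 0.08 and CRABP1 and CRABP2 over MIXL1 were 0.23 and 0.14 in GATA3 KO cells. CYP26A1 over MIXL1, whose interval had held 0, was 0.69 in those cells. Of the recomputed log2 ratios of level, 110 moved outside the interval of the main value, most of them without a change of sign. Over all deposited cells the ratios between the libraries were -1.03 for CYP26A1, 1.06 for CRABP1, 0.39 for CRABP2 and 1.24 for DHRS3. Each of these lay outside its main interval. Between the libraries, the members at least 2-fold higher numbered 1 under TMM and 1 under median-of-ratios scaling. With a pseudocount of 10 CPM, 0 were lower and 0 higher, and the median log2 ratio was 0.0865. With the mean of per-cell CPM it was -0.0125. The counts of members past 2-fold between marker-positive and marker-negative cells moved as follows. With SOX2 in WT cells, 0 were lower at 20000 UMIs and with exclusive states. With MIXL1 in WT cells, 2 were lower with a pseudocount of 0.1 CPM. With TFAP2A in WT cells, 2 were higher and 2 lower with the marker at 2 UMIs or more, 2 higher and 1 lower with exclusive states, 3 higher with a pseudocount of 0.1 CPM, and 2 higher over all deposited cells. With SOX2 in GATA3 KO cells, 1 was higher and 0 lower with the marker at 2 UMIs or more and with exclusive states, and 2 were lower with a pseudocount of 0.1 CPM. With MIXL1 in GATA3 KO cells, 2 were lower with the marker at 2 UMIs or more and with exclusive states, 0 at 20000 UMIs and over all deposited cells, and 3 with a pseudocount of 0.1 CPM. With TFAP2A in GATA3 KO cells, 0 were lower at 20000 UMIs and 2 higher with a pseudocount of 0.1 CPM. Of the other retinoic acid genes, 1 was lower at a minimum of 5 CPM, where fewer genes are counted, and 1 over all deposited cells. Except where an alternative's construction is named, the cause was not tested. Leaving out CER1-positive cells, or the cell with the most UMIs of a member, was chosen after seeing the data. ALDH1A2, RARB and STRA6 are limited by depth, with 16 to 370 UMIs per library.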
